A study of Homo sapiens with 9 samples.

Results

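The genes described here are 9 adhesion genes of leukocytes: the integrin chains ITGAM, ITGAX, ITGAL, ITGB2, ITGA4, ITGA5 and ITGB1, the selectin ligand SELPLG and the hyaluronan receptor CD44. They were chosen by name, and each was found by its symbol in a table of 56541 genes. The table held 9 libraries of total RNA from MOLM-13, an established human acute myeloid leukaemia line, with 3 replicates in each of 3 groups. The shCONTROL group carried a control hairpin and the shBCLAF1 group a hairpin against BCLAF1, an RNA-binding protein of the nucleus. The RIP group was RNA that came down with BCLAF1 from shCONTROL cells. Cells of all 3 groups, the controls included, had doxycycline at 200 ng/µL for 4 days. The study rests on 1 cell line, and the labels name 1 knock-down construct and no mock precipitation. The labels do not say that replicates came from separate cultures, so the p-values below measure the spread between these libraries, which may be technical.

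Integrins are pairs of an alpha and a beta chain that reach the cell surface together. ITGB2 encodes CD18, the beta chain shared by the leukocyte integrins, and ITGAL, ITGAM and ITGAX encode its partners CD11a, CD11b and CD11c. ITGB1 encodes CD29, which pairs with the alpha chain of ITGA4 to bind VCAM1 and fibronectin and with that of ITGA5 to bind fibronectin. SELPLG encodes PSGL-1, a mucin on which leukocytes roll along P-selectin, and CD44 binds hyaluronan in the matrix. In acute myeloid leukaemia such molecules hold blasts to the marrow stroma, and CD11b and CD11c are used as markers of myeloid maturation.

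In the RefSeq annotation of GRCh38.p14, the 3 partners of ITGB2 lie on chromosome 16, ITGAL at 30472742 to 30523185, ITGAM at 31259975 to 31332877 and ITGAX at 31355176 to 31382999. ITGAM and ITGAX are thus neighbours, 22298 bases apart. ITGB2 lies on chromosome 21 (44885953 to 44928815), ITGA4 on chromosome 2 (181457205 to 181538940), ITGA5 on chromosome 12 (54395261 to 54419266) and ITGB1 on chromosome 10 (32900318 to 32958230). SELPLG lies on chromosome 12 (108621895 to 108633894) and CD44 on chromosome 11 (35139171 to 35232402).

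Libraries held 25819144 to 36635268 estimated counts, so that 3 counts equalled 0.0819 to 0.116 CPM (counts scaled to a common library size). The 9 genes took 0.223% to 0.236% of the counts of shCONTROL libraries, 0.241% to 0.249% of shBCLAF1 libraries and 0.234% to 0.262% of RIP libraries, and their lowest value in any library was 161 counts. Levels below are CPM after TMM scaling. They are not divided by transcript length, so they are compared between libraries and never between genes. BCLAF1 itself measured 325, 329 and 313 CPM in control cells. After knock-down it measured 116, 125 and 100.005 CPM, and the RIP libraries held 1134, 1053 and 1029 CPM, so the hairpin lowered its target in every library and the precipitation held more of its mRNA. Of 10 myeloid markers 8 were tested, while KIT and CD14 were listed at 0 in all 9 libraries. Of 5 markers of T cells, CD3E, CD3G and CD2 were also at 0, whereas CD3D and TRAC averaged 11.5 and 25.7 CPM in shCONTROL. All 4 erythroid markers were at 0.

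The knock-down comparison asks what changes when BCLAF1 is depleted. ITGB2, ITGA4 and ITGA5 rose and ITGAL and ITGAX fell, each by less than 1 on the log2 scale. The fitted fold was 1.43 for ITGA4, 1.29 for ITGA5 and 1.28 for ITGB2, whereas ITGAL fell by 31.0% and ITGAX by 24.7%. ITGAM, ITGB1, SELPLG and CD44 did not pass the test. Thus 5 of the 9 genes passed at an adjusted p under 0.05, where 32.3% of the 16961 genes tested did, and 44.6% of those with a mean of at least 10 CPM in shCONTROL. By direction, 3 of 9 were higher and 2 of 9 lower, against 15.5% and 16.9% of all genes. The median log2 fold change of the 9 genes was 0.33, against 0.017 over all genes tested. In RNA from a whole culture, fewer cells with a transcript and less of it per cell cannot be told apart.

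**Figure D1:**
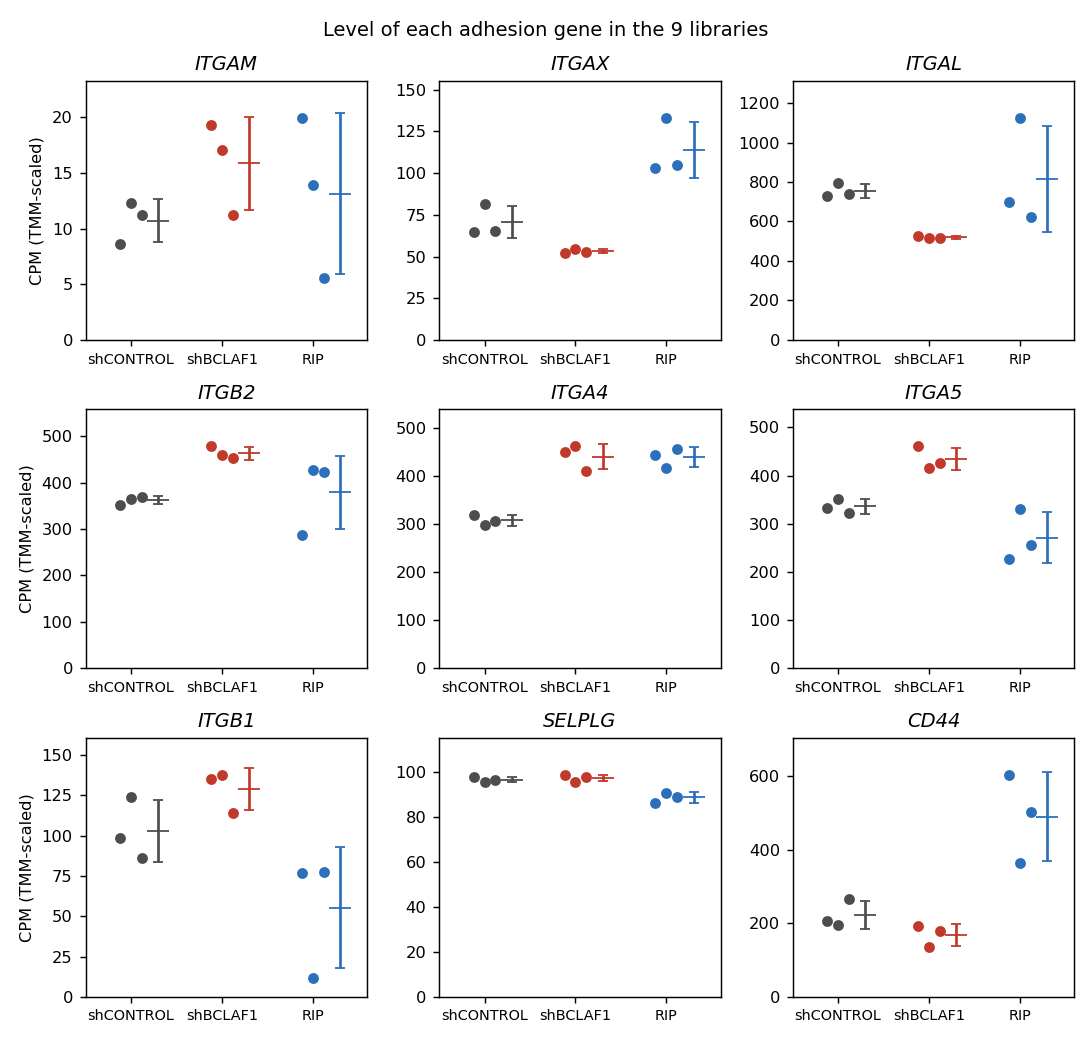
Level of each of the 9 genes (vertical axis, TMM-scaled CPM from 0) in the 3 shCONTROL, 3 shBCLAF1 and 3 RIP libraries (points, replicates 1 to 3 from left to right), with the mean and SD of each group beside them. ITGAL falls from 728 to 794 CPM in shCONTROL to 515 to 529 in shBCLAF1, and 1 RIP library stands low for ITGB1 at 11.7 CPM.

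ITGAL, the alpha chain of LFA-1, which binds ICAM proteins on other cells, measured 728, 794 and 738 CPM in shCONTROL and 529, 515 and 515 CPM in shBCLAF1. Every knock-down library lay below every control library, and the knock-down libraries lay close together. The log2 fold change was -0.53 (adjusted p 5.02e-04; SE 0.044). ITGAX, whose product pairs with CD18 to form a complement receptor, measured 64.7, 81.8 and 65.2 CPM in shCONTROL and 52.3, 54.5 and 52.5 CPM in shBCLAF1. Its groups did not overlap either, although shCONTROL replicate 2 stood above the other controls. The log2 fold change of ITGAX was -0.41 (adjusted p 0.0223; SE 0.098). The call for ITGAX was lost when any shBCLAF1 library was left out (adjusted p 0.0713, 0.0604 and 0.0629 without replicate 1, 2 and 3).

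ITGB2, the shared partner of these chains, moved the other way. It measured 352, 365 and 368 CPM in shCONTROL and 478, 458 and 452 CPM in shBCLAF1, with no overlap between the groups and a log2 fold change of 0.36 (adjusted p 0.00114; SE 0.037). ITGAM, the alpha chain of Mac-1, had the lowest counts of the 9 genes, at 303, 415 and 402 counts in shCONTROL and 731, 640 and 411 in shBCLAF1. In CPM this was 8.58, 12.3 and 11.2 against 19.3, 17.0 and 11.2, so shBCLAF1 replicates 1 and 2 stood above all controls and replicate 3 among them. The log2 fold change of ITGAM was 0.57 (adjusted p 0.119; SE 0.23), the highest of the 9 genes in size and error. Without shBCLAF1 replicate 3 it was 0.76 and passed (adjusted p 0.0287), and it also passed with DESeq2 (adjusted p 0.0344).

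ITGA4 had the highest fold of the 3 genes that rose. It measured 319, 298 and 307 CPM in shCONTROL and 450, 462 and 411 CPM in shBCLAF1, and the groups lay far apart beside their spread, with a log2 fold change of 0.52 (adjusted p 0.00115; SE 0.055). ITGA4 alone of the 5 genes called kept its call in all 12 alternatives, whereas with 1 fit of all 9 libraries ITGAL (adjusted p 0.118), ITGB2 (0.148), ITGA5 (0.109) and ITGAX (0.0662) no longer passed. ITGA5 measured 332, 352 and 323 CPM in shCONTROL and 460, 416 and 426 CPM in shBCLAF1. Its groups did not overlap, and the log2 fold change was 0.37 (adjusted p 0.00357; SE 0.054). ITGB1, the beta chain of both, measured 98.6, 124 and 86.1 CPM in shCONTROL and 135, 138 and 114 CPM in shBCLAF1. Knock-down replicate 3 lay below control replicate 2, and the log2 fold change of 0.33 (adjusted p 0.143; SE 0.14) did not pass. ITGB1 passed without shCONTROL replicate 2 (0.49, adjusted p 0.0299) and with DESeq2 (adjusted p 0.0454).

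ITGA4 and ITGA5 rose together, and their promoters are shown for that reason. Of the 9 genes, 5 had an entry in the RefSeq promoter table of GRCh38.p14. Each sequence ends with the base at the start of the annotated gene, and capitals mark matches to the motifs searched on both strands. ITGA4 is read from chr2:181457136-181457205 on the plus strand, and ITGA5 from chr12:54419266-54419516 on the minus strand.
ITGA4: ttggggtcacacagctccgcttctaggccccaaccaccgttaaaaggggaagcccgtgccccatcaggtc
ITGA5: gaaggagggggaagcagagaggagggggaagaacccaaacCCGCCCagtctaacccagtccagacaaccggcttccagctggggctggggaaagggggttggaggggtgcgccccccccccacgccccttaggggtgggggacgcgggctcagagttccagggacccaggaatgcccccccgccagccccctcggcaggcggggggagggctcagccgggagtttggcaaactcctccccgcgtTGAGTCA
The motifs were GGGCGG (the GC box bound by SP1), TGAGTCA (AP-1), GAGGAA (a core of PU.1 sites) and CACGTG (the E-box of MYC and MAX). The ITGA5 window held 1 GGGCGG, which is on the opposite strand and so printed as its reverse complement, and 1 TGAGTCA, and the matches do not overlap. Among all 35116 promoter entries cut to the same 251 bases, 42.7% held GGGCGG, 4.30% TGAGTCA, 23.7% GAGGAA and 6.37% CACGTG. None of the 4 motifs was in the 70 bases of ITGA4, the part of its entry up to the annotated gene start. The shares over the first 70 bases of all entries were 12.3%, 0.852%, 7.10% and 1.26%. In other entries those bases need not end at a gene start, so these shares are not of like positions. These matches describe the letters in the windows only.

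SELPLG had the smallest change of the 9 genes. It measured 97.6, 95.6 and 96.5 CPM in shCONTROL and 98.7, 95.7 and 97.7 CPM in shBCLAF1, and the groups overlapped, with a log2 fold change of 0.013 (adjusted p 0.811; SE 0.033). CD44 measured 206, 195 and 265 CPM in shCONTROL and 193, 136 and 178 CPM in shBCLAF1. The groups did not overlap, although the highest knock-down library, at 193 CPM, nearly reached the lowest control. The log2 fold change of CD44 was -0.39 (adjusted p 0.131; SE 0.17), which did not pass, and with DESeq2 the adjusted p was 0.0226. Groups did not overlap in 6 of the 9 genes, against 49.3% of all genes tested. Of these 3 were higher and 3 lower, against 24.5% and 24.8%.

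**Figure D2:**
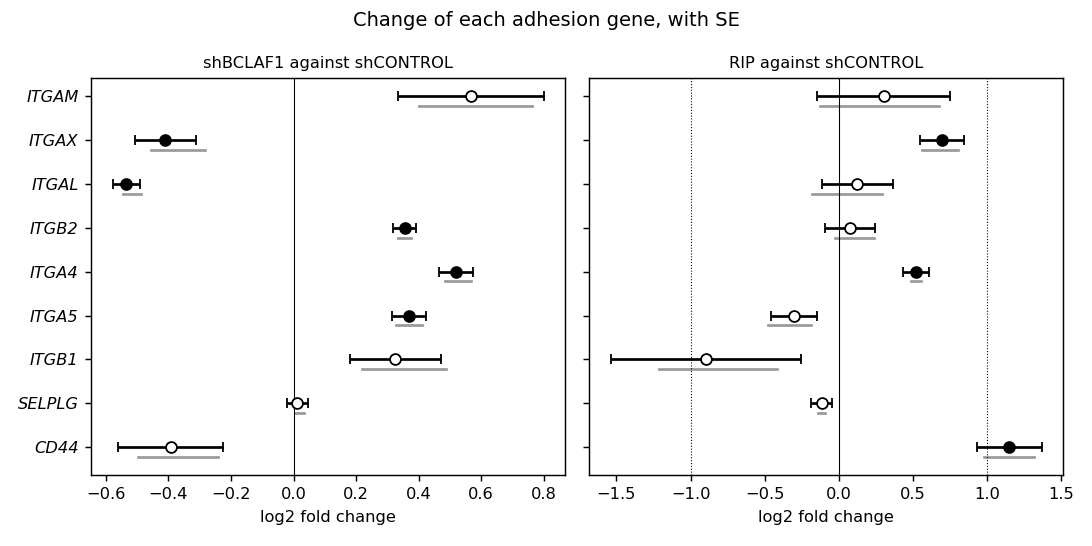
Log2 fold change (horizontal axis) of each of the 9 genes, shBCLAF1 against shCONTROL on the left and RIP against shCONTROL on the right; the axes differ in range. Bars are the SE, filled points have an adjusted p under 0.05, grey lines span the fits with 1 library left out, and dotted lines mark the minimum of 1 for the RIP. CD44 at 1.15 is the only one of the 9 past that minimum with a filled point.

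Other genes of this family and of its surroundings were read from lists. Of 19 other integrin chains, 5 were tested after knock-down, 1 was higher and 0 lower. That gene was ITGB7, a second beta chain that pairs with the product of ITGA4, at 12.5 ± 1.81 CPM in shCONTROL and 23.0 ± 1.93 in shBCLAF1 (mean ± SD of 3 libraries; fold 1.84, adjusted p 0.00356). The other 4 tested were ITGA7, ITGAE, ITGAV and ITGB5, and 14 chains were listed at 0 in all RNA-seq libraries, ITGAD and ITGB3 among them. The median log2 fold change of the 5 tested was 0.075.

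Of 18 counter-receptors and selectins, 9 were tested, 4 were higher and 1 lower. Among the genes of the ICAM proteins, ICAM1 and ICAM3 rose 1.72-fold and 1.63-fold. They went from 14.7 ± 2.39 and 36.0 ± 2.53 CPM to 25.2 ± 1.46 and 58.8 ± 4.19 (mean ± SD of 3 libraries). ICAM2 did not pass, at 0.033 on the log2 scale (adjusted p 0.952). F11R, the junctional molecule JAM-A and another partner of LFA-1, rose 1.88-fold (adjusted p 3.20e-04), and the remaining one was PECAM1, at 0.35 on the log2 scale (adjusted p 0.0147), with a call in 10 of 12 alternatives. ICAM5 fell by 1.20 on the log2 scale (adjusted p 0.0140), and did not pass without shCONTROL replicate 2 (adjusted p 0.0529). VCAM1, SELE and SELP were listed at 0 in every library. The median log2 fold change of the 9 genes tested in this list was 0.35.

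Of 12 enzymes that build or sulfate the sugars of selectin ligands, 11 were tested, 2 were higher and 0 lower. GCNT1, which starts the branched O-glycan that carries the selectin-binding sugar, rose 1.93-fold, from 35.9 ± 2.14 to 69.3 ± 5.87 CPM (mean ± SD of 3 libraries). FUT7, the fucosyltransferase that completes sialyl Lewis x, rose 1.36-fold (adjusted p 0.0126). The protein backbone of the ligand is encoded by SELPLG, whose log2 fold change is given above as 0.013. The median of the list was 0.12.

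Of 28 genes of integrin activation and adhesion adaptors, 26 were tested, 6 were higher and 6 lower. ZYX, a focal adhesion protein, fell by 0.67 on the log2 scale, from 692 ± 22.7 to 435 ± 10.6 CPM (mean ± SD of 3 libraries; adjusted p 2.34e-04). TLN2, a talin that links integrin tails to actin, fell by 1.10 (adjusted p 3.52e-04), and the parvin PARVB fell by 0.82 (adjusted p 5.79e-04). VCL, the talin-binding protein vinculin, rose 1.55-fold (adjusted p 0.00101). The other genes of this list that passed, outside the rule for named genes, were FERMT3, SKAP2, FLNA, SYK and RSU1, which rose, and FERMT1, PTK2 and PTK2B, which fell. Calls held in 12 of 12 alternatives for SYK, FERMT1 and PTK2, in 11 for FERMT3, RSU1 and PTK2B, in 10 for FLNA and in 8 for SKAP2. The median was 0.042 on the log2 scale. Of 15 linkers, sheddases and ligand enzymes of CD44 and PSGL-1, 12 were tested, 2 were higher and 2 lower. ADAM17, a sheddase of adhesion molecules, rose 1.21-fold and MSN, which links CD44 and PSGL-1 to actin, fell by 0.17 on the log2 scale, and neither passed in 1 fit of all 9 libraries (adjusted p 0.0695 and 0.181). ADAM10 rose by 0.21 on the log2 scale and HMMR fell by 0.16, with calls in 6 and 4 of 12 alternatives. HMMR did not pass with any 1 library left out, nor ADAM10 without shCONTROL replicate 1 or 3 or shBCLAF1 replicate 1 or 2 (adjusted p 0.0617 to 0.130).

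**Figure D3:**
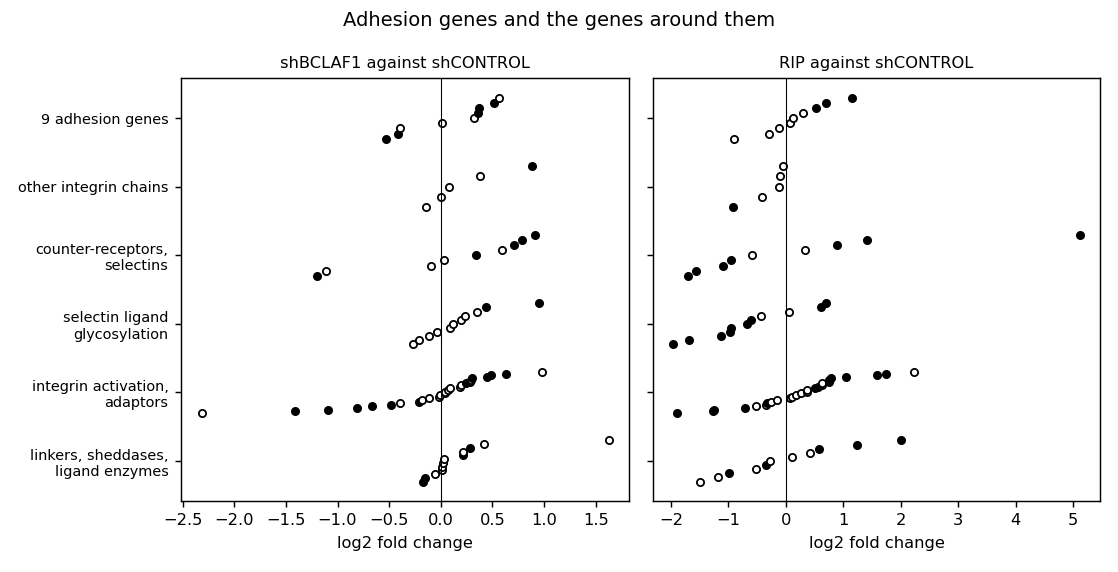
Log2 fold change (horizontal axis) of the 9 adhesion genes and of the tested genes of 5 lists (rows; within a row, genes are stacked by their change), for shBCLAF1 against shCONTROL on the left and RIP against shCONTROL on the right; axes differ in range. Filled points have an adjusted p under 0.05 and genes at 0 in all libraries of a group are left out; ITGB7 is the filled point of the other integrin chains on the left, at 0.88.

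The summed level of 10 markers of myeloid cells ran from 1994 to 2115 CPM in shCONTROL and from 3953 to 4379 CPM in shBCLAF1, with 4 markers higher (LYZ, ELANE, SPI1 and CD33) and 1 lower (FLT3) of 8 tested, while PTPRC, MPO and CSF1R did not pass. Most of the sum in shBCLAF1 was LYZ, the lysozyme of granulocytes and monocytes, at 730 ± 56.0 CPM in shCONTROL and 2650 ± 202 in shBCLAF1 (mean ± SD of 3 libraries). T-cell markers ran from 35.0 to 39.3 CPM in sum in shCONTROL and from 19.2 to 25.9 in shBCLAF1. All of this sum came from TRAC and CD3D, since CD3E, CD3G and CD2 were at 0. TRAC fell from a mean of 25.7 CPM in shCONTROL to 13.0 in shBCLAF1 (adjusted p 0.00178). CD3D, at means of 11.5 and 9.41 CPM, did not pass (adjusted p 0.165). The part of either shift in the values of the 9 genes was not tested.

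The RIP comparison asks which RNAs came down with BCLAF1 more than their level in the cells would give. CD44 mRNA was enriched 2.22-fold, and it was the gene among the 9 that passed with a change of 1 or more on the log2 scale, which 11.1% of 16727 genes did in that direction and 24.7% in either. ITGAX and ITGA4 were higher by less, at 1.62-fold and 1.44-fold, and passed the test without that minimum. At an adjusted p under 0.05 alone, 3 of the 9 passed, against 49.2% of all genes and 62.2% of those with a mean of at least 10 CPM in shCONTROL. By direction, 3 were higher, against 24.6%, and 0 lower, against 24.7% (edgeR). The other 6 did not pass. The median log2 fold change was 0.13 for the 9 genes and -0.049 for all genes tested. The reference was the RNA-seq of shCONTROL cells, made from fewer cells than the RIP, and no mock precipitation is named. Enrichment, background of the precipitation and the difference in starting material therefore cannot be told apart.

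CD44 measured 604, 364 and 504 CPM in the RIP, against 206, 195 and 265 CPM in shCONTROL. All RIP libraries lay above all controls, with RIP replicate 2 the lowest of them, and the log2 fold change was 1.15 (adjusted p 0.00641; SE 0.22). It was 0.98 without RIP replicate 1, under the minimum of 1, and it did not pass when tested for a change beyond that minimum (adjusted p 0.468). ITGAX measured 103, 133 and 105 CPM in the RIP, above its controls of 64.7 to 81.8 CPM, with a log2 fold change of 0.70 (adjusted p 0.00992; SE 0.15). ITGA4 measured 445, 418 and 457 CPM in the RIP, above its controls of 298 to 319 CPM, with a log2 fold change of 0.52 (adjusted p 0.00373; SE 0.086).

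The other integrin chains varied widely between the RIP libraries. ITGB1 measured 76.6, 11.7 and 77.3 CPM, so RIP replicate 2 held far less than the other 2, while all 3 lay below the controls. Its log2 fold change was -0.90 (adjusted p 0.292; SE 0.64), and -0.42 without RIP replicate 2 (adjusted p 0.0902). The processed pseudogene ITGB1P1, which can share reads with ITGB1, held 154, 146 and 190 counts in the RIP, against 1970, 334 and 2238 for ITGB1. Whether the 2 shared reads was not tested. ITGAL went the other way in RIP replicate 2, with 1124 CPM against 700 and 625 in replicates 1 and 3, and its groups overlapped (log2 fold change 0.13, adjusted p 0.684, SE 0.24). Without RIP replicate 2 the log2 fold change of ITGAL was -0.18.

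ITGAM measured 19.9, 13.9 and 5.56 CPM in the RIP, on both sides of the controls. At 0.30 on the log2 scale (adjusted p 0.600) the difference was below its SE of 0.45. ITGB2 measured 288, 426 and 423 CPM in the RIP, with replicate 1 below and the others above the controls (log2 fold change 0.074, adjusted p 0.734, SE 0.17). ITGA5 measured 227, 330 and 257 CPM, and its log2 fold change of -0.30 (adjusted p 0.162; SE 0.16) passed without RIP replicate 2 (-0.47, adjusted p 0.00838) and under total counts (-0.43, adjusted p 0.0347), in both cases under the minimum of 1 in size. SELPLG measured 86.2, 90.8 and 89.0 CPM, all below the controls of 95.6 to 97.6 CPM, by a log2 fold change of -0.12 (adjusted p 0.213; SE 0.069). Under total counts that of SELPLG was -0.23 and passed (adjusted p 0.0369), also under the minimum. Groups did not overlap in 5 of the 9 genes, against 67.1% of all genes tested. Of these 3 were higher and 2 lower, against 31.4% and 35.7%.

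The surroundings of these genes in the RIP were mixed. Of 11 enzymes of selectin ligand sugars tested, 0 were enriched and 3 depleted (edgeR), with a list median of -0.67, namely B4GALT1 at 84.1 ± 3.97 CPM in shCONTROL and 21.4 ± 4.73 in the RIP (mean ± SD of 3 libraries), C1GALT1C1 and FUT7. Of 10 counter-receptors and selectins tested, 3 were enriched and 3 depleted, with a median of -0.13. F11R fell by 1.70 on the log2 scale and CD47, a signal against phagocytosis that also associates with integrins, fell by 1.09, or by 0.99 and so under the minimum without RIP replicate 2. PECAM1, an adhesion molecule of leukocytes and endothelium, was 2.67-fold higher, at 498 ± 139.5 CPM in the RIP (SD, n = 3). MADCAM1 was listed at 0 in shCONTROL and at 28, 35 and 54 counts in the RIP. The other genes called were SPP1, higher, and ICAM2, lower, with calls in 6 of 12 and 9 of 13 alternatives, and both fall outside the rule for named genes.

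Of 26 activation and adaptor genes tested in the RIP, 3 were enriched and 3 depleted, with a median of 0.31. The focal adhesion kinase gene PTK2 was 3.00-fold higher (adjusted p 2.69e-04), whereas ZYX fell by 1.89, LIMS1 by 1.26 and RAP1B by 1.26 on the log2 scale. TLN2 and CYTH1, outside the rule for named genes, were the other genes enriched, with calls in 6 and 8 of 13 alternatives. Of 11 linkers, sheddases and ligand enzymes tested, 2 were enriched and 0 depleted (edgeR), with a median of -0.27. They were HMMR, a hyaluronan-binding protein of the mitotic spindle, at 3.98-fold, and RDX, the actin linker radixin, at 2.36-fold. Against a log2 fold change of 1, CD47, PECAM1, FUT7, LIMS1, RAP1B and RDX did not pass (adjusted p 0.0596 to 0.459). Of 5 other integrin chains, 0 were enriched or depleted (edgeR), with a median of -0.12. ITGB7 passed the test alone (adjusted p 0.00784) and measured 6.58 ± 1.19 CPM in the RIP (SD, n = 3), against 12.5 in shCONTROL. The summed level of the myeloid markers was 1370 to 1467 CPM in the RIP, and its part in these values was not tested.

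Both comparisons used the same shCONTROL libraries, so their values are given side by side and not correlated. ITGA4 had log2 fold changes of 0.52 after knock-down and 0.52 in the RIP, ITGAX of -0.41 and 0.70, and CD44 of -0.39 and 1.15. ITGAL had -0.53 and 0.13, ITGB2 0.36 and 0.074, and ITGA5 0.37 and -0.30. ITGAM had 0.57 and 0.30, ITGB1 0.33 and -0.90, and SELPLG 0.013 and -0.12, and these passed in neither comparison.

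Ratios of 2 chains within a library need no scaling between libraries, and 3 were computed in each comparison. The smallest p that the exact permutation test can give with 3 against 3 libraries is 0.1. ITGAM relative to ITGAL was -6.14 ± 0.22 on the log2 scale of counts in shCONTROL and -5.07 ± 0.39 in shBCLAF1 (SD, n = 3 libraries). All knock-down libraries thus lay above all controls, and the ratio was 2.11-fold higher (two-sided exact permutation p = 0.1, adjusted over 6 tests 0.2). In the RIP this ratio ran from -6.79 to -5.13, on both sides of the controls (exact permutation p = 0.9, adjusted 1). ITGA4 relative to ITGA5 ran from -0.24 to -0.060 in shCONTROL, from -0.051 to 0.15 in shBCLAF1 and from 0.34 to 0.97 in the RIP. The 3 groups did not overlap, and the ratio was 1.11-fold higher after knock-down and 1.79-fold higher in the RIP (exact permutation p = 0.1 and 0.1, adjusted 0.2 and 0.2). ITGB2 relative to ITGB1 ran from 1.56 to 2.10 in shCONTROL and from 1.74 to 1.98 in shBCLAF1, so the knock-down values lay within the control range (exact permutation p = 1). In the RIP it ran from 1.91 to 5.17, the highest value being that of replicate 2 with its low ITGB1 (exact permutation p = 0.2, adjusted 0.3).

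**Figure D4:**
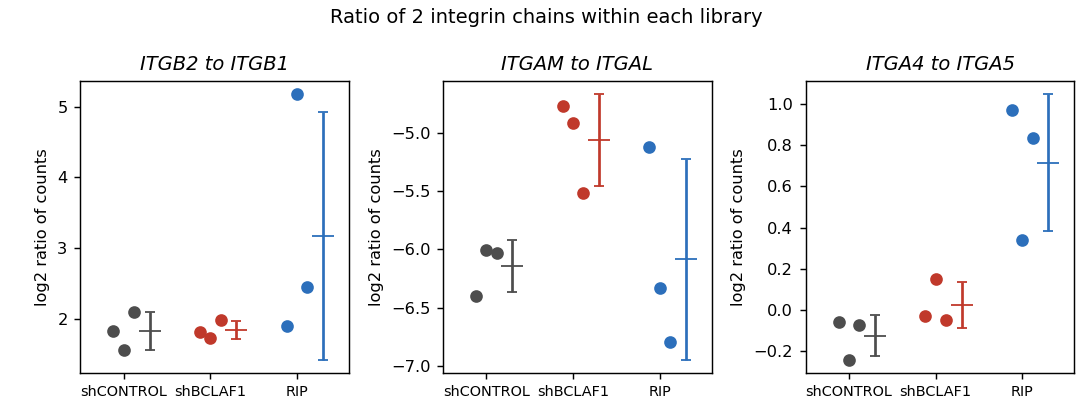
Log2 ratio of the estimated counts of 2 integrin chains (vertical axis, 2 counts added to each) in each library of the 3 groups (points), with mean and SD beside them. The mean ITGAM to ITGAL ratio is -6.14 in shCONTROL and -5.07 in shBCLAF1.

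The genes whose log2 CPM over the 9 libraries was most like that of ITGAL, the gene with the lowest knock-down change, were DENND11, USP9X and PRAG1, with Pearson's r of 0.987, 0.986 and 0.986 among 12471 genes. USP9X, for example, averaged 178 CPM in shCONTROL, 135 after knock-down and 186 in the RIP. For ITGAM, the gene with the highest change, they were ZHX1-C8orf76, GEN1 and AGAP6, with r of 0.932, 0.921 and 0.915. Their means in shCONTROL, shBCLAF1 and the RIP were 5.86, 6.81 and 6.63 CPM for ZHX1-C8orf76 and 80.6, 86.4 and 82.3 for GEN1. Those of AGAP6 were 6.44, 9.96 and 7.79 CPM. The 9 points of each r share 3 groups and the same libraries, and the values are descriptions.

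Antisense and pseudogene transcripts named after these genes were looked at after their values were seen. ITGB2-AS1 rose with ITGB2 after knock-down, from 80, 77 and 92 counts in shCONTROL to 278, 284 and 301 in shBCLAF1 (fold 3.25, adjusted p 2.87e-04). The kit kept strand, but whether the counting used it is not given in the sources used here, so reads of ITGB2 and ITGB2-AS1 may not be separated. ITGAL-AS1 and CD44-AS1 held at most 42 and 57 counts in a library and did not pass in either comparison. ITGB1P1 averaged 9.62 CPM (SD 1.26) in shCONTROL, 9.98 (SD 0.102) after knock-down and 5.89 (SD 0.719) in the RIP, and it passed in the RIP without the minimum (log2 fold change -0.70, adjusted p 0.0131).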

How the data were processed

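RNA-seq of shCONTROL and shBCLAF1 cells and BCLAF1 RIP of shCONTROL cells were measured in 3 libraries each. The authors deposited estimated counts for each gene (expected counts), not normalized. The submitters' processing notes name STAR 2.7.11b, StringTie 2.2.3 and hg38. The annotation is not given in the sources used here. The values were whole and were rounded no further. Some genes in this table stand at 0 beside high replicates, so a 0 does not show absence. The 1 entry naming no gene (0% to 3.75% of counts) was left out.

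Each contrast was fitted on all genes of its own 6 libraries with edgeR 4.0.16 (R 4.3.3): default filter, TMM, prior count of 0.125, quasi-likelihood testing of a model holding the group alone, Benjamini-Hochberg adjustment over all genes tested, threshold 0.05. All adjusted p-values are of this kind unless DESeq2 (1.42.0) is named. RIP enrichment also needed a log2 fold change of at least 1. The SE is the coefficient over the root of F. CPM used TMM over all 9 libraries. The fits were also run on simulated counts that gave all genes the same spread. Those counts held no outlying library, so they cannot show how the fits treat one. The identifiers and symbols of the 9 genes matched the gene name table for 9 of 9.

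The 9 genes and the lists were chosen with earlier results of these data known. From each list, up to 4 genes with the smallest adjusted p among those called were named. The likeness rule took the genes with the highest and lowest knock-down change and required a mean of 50 counts. The promoter windows and motifs were chosen after the values were seen. Alternatives were total counts, DESeq2, no filter, genes above 0 in all libraries, 1 fit of all 9 libraries, a replicate block, each library left out, and for the RIP testing whether the change exceeded 1 on the log2 scale.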

Additional observations from a re-analysis of the deposited data

How the results depend on the processing

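Over 12 alternatives for the knock-down, the direction held for each of the 9 genes. With 1 fit of all 9 libraries, the counts fell from 2625 higher and 2859 lower to 1129 and 1318 over all genes, and from 3 and 2 to 1 and 0 among the 9, since ITGAX, ITGAL, ITGB2 and ITGA5 no longer passed (adjusted p 0.0662, 0.118, 0.148 and 0.109). That fit takes its spread from the RIP libraries too. DESeq2 called 5 of the 9 higher and 3 lower, adding ITGAM, ITGB1 and CD44, and 3205 and 3475 over all genes. With 1 library left out, 3 to 4 of the 9 were higher and 1 to 2 lower. In the RIP, testing whether the log2 change exceeded 1 called 732 genes enriched and 1142 depleted, in place of 1853 and 2281, and 0 of the 9. With 1 library left out, 0 to 1 of the 9 were enriched. Total counts moved the median of all genes from -0.049 to -0.17 on the log2 scale, and with it ITGAL (-0.0028) and ITGB2 (-0.053) changed sign. The sign of the RIP change also turned without RIP replicate 1 for ITGAM (-0.13), without replicate 2 for ITGAL (-0.18) and ITGB2 (-0.025), and without replicate 3 for ITGB2 (-0.0037). The ranges with 1 library left out were -0.13 to 0.67 for ITGAM, -0.18 to 0.29 for ITGAL and -0.025 to 0.24 for ITGB2. None of these genes passed in either case, and the cause was not tested. With 1 library left out, the ITGB2 to ITGB1 difference after knock-down ran from -0.12 to 0.15 and turned without shCONTROL replicate 2 or shBCLAF1 replicate 3 (-0.049). The ITGAM to ITGAL difference in the RIP ran from -0.42 to 0.41 and turned without shCONTROL replicate 1 (-0.067) or RIP replicate 1. For the other ratios it ran from 0.93 to 1.30 and 0.083 to 0.18 after knock-down (ITGAM to ITGAL and ITGA4 to ITGA5), and from 0.35 to 1.98 and 0.71 to 1.03 in the RIP (ITGB2 to ITGB1 and ITGA4 to ITGA5).

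The labels do not say whether libraries with the same replicate number were made together. Over 13746 genes, deviations of libraries with the same number correlated at -0.0028, 0.098 and -0.0020 in the knock-down. In the RIP they correlated at -0.036, 0.0043 and 0.0011. With the replicate block, 2271 genes were higher and 2538 lower after knock-down, and 4 and 2 of the 9, with ITGB1 added (0.34, adjusted p 0.0418). In the RIP 1597 were enriched and 1879 depleted, and 1 of the 9.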

Other observations

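ITGAV, an integrin alpha chain that binds vitronectin, held 185, 204 and 39 counts in RIP replicates 1, 2 and 3, so the low library was replicate 3 and not replicate 2, which was the low one for ITGB1. SPP1, the integrin ligand osteopontin, held 231, 259 and 274 counts in the RIP, 0, 27 and 0 in shCONTROL and 0 in all 3 shBCLAF1 libraries. Its RIP call (adjusted p 0.0262, edgeR) was kept in 6 of 12 alternatives. CD99, a surface protein used in leukocyte passage through endothelium, has 2 entries in the table, and both stood at 0 in all 9 libraries. A 0 here does not show absence, and why both entries stood at 0 was not tested.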
